A study of Mus musculus with 12 samples.

Results

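The genes described here are those whose nuclear transcripts were high at postnatal day 14 (P14) and lower both at birth (P0) and at postnatal day 28 (P28) in Cre-selected cortical cells of mouse. A gene was taken when it had a symbol, a mean of 5 or more CPM at P14 (the reads of a gene scaled to the total of its library) and a P14 mean of 1.4 or more times both other means. In addition, each of the 4 P14 libraries had to lie above each of the 4 P0 and the 4 P28 libraries. Of the 25834 genes in all 3 deposited tables, 252 met these conditions, which is 2.18% of the 11571 genes with a symbol at 5 or more P14 CPM. Since these values chose the genes, the P14 levels, their distance from the other ages and the ratio (the P14 mean over the higher of the P0 and P28 means) are given as descriptions and were not tested.

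RNA was taken from cortical nuclei of male pups that carried 1 copy each of CAG-Sun1/sfGFP and NEX-Cre, and the 3 groups differed in age only as far as the labels say. NEX-Cre drives Cre recombinase from Neurod6, a gene of excitatory cortical neurons, and Sun1/sfGFP is a green fluorescent nuclear envelope protein that appears once Cre has acted and by which nuclei are captured (INTACT). Polyadenylated nuclear RNA was sequenced from 4 biological replicates at each age, and the series belongs to work on the histone variant H2BE. Library names at P0 and P14 carry "WT" with no locus named, and P28 names do not. Each age was deposited as its own table with its own libraries, so age and library set cannot be told apart. No control without Cre and no input nuclei were analysed here.

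In the mouse cortex the weeks after birth are a time of rapid synapse formation, first myelination, astrocyte maturation and a growing demand for energy. Pups live on fat-rich milk until about weaning, and the brain of suckling animals uses ketone bodies beside glucose. Mitochondria make ATP by oxidative phosphorylation: complexes I to IV pass electrons to oxygen, with cytochrome c between III and IV, and complex V, the ATP synthase, uses the proton gradient that results. Nuclear genes encode most subunits, whereas a small circular genome inside the organelle encodes the rest.

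Reads over the shared genes ranged from 13195538 to 16598480 in P0 libraries, from 25484599 to 33606851 in P14 libraries and from 21566645 to 31212127 in P28 libraries. One library stood apart: P14 replicate 2 had a mean correlation of 0.951 with the other P14 libraries over the log2 values of the genes tested, against 0.976 or more for every other library with its own age. It was the highest P14 library for 171 of the 252 genes (67.9%), against 41.7% of all 15734 genes tested, and it reached 1.5 or more times the mean of the other 3 P14 libraries in 71 of the 252, against 18.7% of all genes tested. Without it, 180 of the 252 kept a ratio of 1.4 or more and 72 did not. The rule applied to the other 11 libraries chose 245 genes, 176 of them among the 252. A ratio without P14 replicate 2 is therefore given for many of the genes described. The sum of 12 excitatory neuron markers, among them Slc17a7 and Neurod6, ran from 2602 to 3303 CPM (P0), from 4032 to 5602 (P14) and from 5478 to 5872 (P28), with P14 replicate 2 at the low end of its age. Of these 12 genes 3 were higher and 6 lower at P14 than at P0 (34.4% and 34.5% of all genes tested), with a median log2 fold change of −0.60. At P28 against P0, 3 were higher and 8 lower (35.7% and 35.6% of all genes tested). The rise of the sum was therefore not shared by most of the 12. None of these markers was at 0 in all libraries, and neither was any marker of astrocytes, oligodendrocytes, microglia, vessels or inhibitory neurons. In bulk samples such as these, fewer cells of a type and less RNA per cell cannot be told apart.

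Levels below are CPM scaled between libraries, in the order of replicates 1 to 4, and are compared only within a gene. Gene positions and sequences are from RefSeq on GRCm38.p6, the assembly that mm10 names.

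Promoter windows are shown for a set of members because they hold an unchanged copy of a motif searched in all promoters. The cAMP response element (CRE), the palindrome TGACGTCA bound by the CREB family, was in the 250 bases before the start of 9 of 193 matched member promoters (4.66%), of 279 of 9256 promoters of genes at 5 or more P14 CPM (3.01%) and of 439 of all 27025 (1.62%). The first base of the element lay 95 bases before the start in Dio2, 78 in Gpr6, 112 in Cartpt and 93 in Pet100. Of 16 subunits of oxidative phosphorylation among the 252 genes that had a matched promoter, only Atp5k held an exact site of nuclear respiratory factor 1 (NRF1). Its site lay 50 bases before the start. Subunits without a matched promoter were not searched. Each window is the last 160 bases before the first RefSeq start listed, 5′ to 3′ on the gene's strand, and capitals mark the CRE or, in Atp5k, the NRF1 site.
Dio2: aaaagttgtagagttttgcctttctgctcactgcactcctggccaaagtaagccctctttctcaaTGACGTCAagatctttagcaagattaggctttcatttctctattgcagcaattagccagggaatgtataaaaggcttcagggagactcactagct
Gpr6: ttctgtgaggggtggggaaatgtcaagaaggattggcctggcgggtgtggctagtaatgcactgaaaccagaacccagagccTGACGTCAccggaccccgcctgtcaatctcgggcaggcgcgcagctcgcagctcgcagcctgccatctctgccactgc
Cartpt: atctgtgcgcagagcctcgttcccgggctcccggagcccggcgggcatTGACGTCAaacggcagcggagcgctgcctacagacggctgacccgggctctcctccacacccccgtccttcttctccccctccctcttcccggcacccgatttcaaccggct
Pet100: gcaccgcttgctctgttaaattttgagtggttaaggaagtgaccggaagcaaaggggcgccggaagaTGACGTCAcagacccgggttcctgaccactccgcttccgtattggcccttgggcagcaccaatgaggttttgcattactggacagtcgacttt
Atp5k: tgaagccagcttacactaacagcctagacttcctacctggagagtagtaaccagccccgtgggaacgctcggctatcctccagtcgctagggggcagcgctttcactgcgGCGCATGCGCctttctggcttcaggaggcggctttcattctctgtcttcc
These windows lie at chr12:90739039-90739198 (minus strand), chr10:41072291-41072450 (minus), chr13:99900684-99900843 (minus), chr8:3621391-3621550 (plus) and chr5:108434400-108434559 (minus). The Cartpt start lies inside the annotated span of the gene, which has a further start upstream. On both strands, the NRF1 site was in 1.04% of member promoters and in 1.67% of those of genes at 5 or more P14 CPM. The ETS site CCGGAAGT, which is also read by GABPA, was in 5.18% and 6.14%, and the AP-1 site TGANTCA in 4.66% and 3.54%. The YY1 motif AAGATGGC was in 0.518% and 2.10%, the estrogen-related receptor motif TCAAGGTCA in 1.04% and 0.238%, and the TATA box TATAAA in 7.77% and 5.76%. A match is a description of the letters and shows no binding.

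Most of the peaks were modest. The median ratio over the 252 genes was 1.61, with 48 genes at 2 or more, 7 at 3 or more and 5.22 as the highest. Just inside the ratio of 1.4 stood Amz1 (1.4003), BC030500 (1.4008) and Gm20604 (1.4016), and just outside it Polr2g (1.3998) and Slc2a6 (1.3996). At the level of 5 CPM, Nr2c2ap and Fibin were just inside, both with 5.01, and Gm42067 and Clca3a1 just outside, both with 4.87. A further 195 genes met the level and the ratio with overlapping libraries, and 14 genes without a symbol met every other condition. On the scaled CPM used below, 198 of the 252 still met the rule.

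The highest ratio, 5.22, was that of A830029E22Rik (chr3:81802025-81805161), a transcript known by its clone name. It had 0.0602, 0.656, 0.393 and 0.598 CPM at P0, 5.44, 3.35, 8.04 and 7.19 at P14 and 1.04, 1.012, 0.929 and 1.72 at P28, and its ratio without P14 replicate 2 was 5.98. Tmem114 (chr16:8409276-8425136), a membrane protein gene, was close to 0 at birth with 0.0602, 0, 0.236 and 0 CPM, reached 4.87, 5.89, 5.53 and 4.28 at P14 and was at 1.47, 1.5001, 1.27 and 2.202 at P28 (ratio 3.28, 3.11 without P14 replicate 2). In both genes every P14 library lay well above every P28 library. Lct (chr1:128284756-128328318), which encodes lactase, the enzyme that splits milk sugar in the intestine, had 0.422, 0.875, 0.393 and 0.897 CPM at P0, 5.51, 7.33, 4.62 and 6.11 at P14 and 1.85, 2.16, 1.77 and 1.88 at P28 (ratio 3.16, 2.89 without that library). Nt5e (chr9:88327609-88372089), which makes adenosine from AMP outside cells, was at 9.66, 9.56, 9.48 and 6.29 CPM at P14 between 1.93, 2.62, 3.46 and 3.29 at P0 and 2.84, 3.42, 2.83 and 3.89 at P28. Its P28 level did not differ from P0 past the threshold (log2 fold change 0.19 ± 0.20, adjusted p = 0.404, limma). Lax1 (chr1:133679017-133693022), a membrane adaptor best known from lymphocytes, went from 0.422, 0.5104, 0.157 and 0.224 to 4.49, 9.36, 3.98 and 5.97 and then to 2.46, 1.92, 2.83 and 2.01 CPM (ratio 2.65, 2.13 without P14 replicate 2).

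For some of the high ratios a single library carried much of the peak. 2810049E08Rik (chr13:83891208-83928710) had 19.96, 97.6, 21.98 and 25.7 CPM at P14 against 11.6, 13.5, 19.1 and 19.3 at P28, and its ratio of 2.67 fell to 1.45 without P14 replicate 2. Wdr95 had 5.06, 15.3, 4.78 and 5.11 CPM at P14 and 2.32, 2.55, 2.96 and 3.096 at P28 (ratio 2.85, 1.86 without that library). Msln, which encodes the surface protein mesothelin, had 5.51, 12.1, 4.21 and 6.58 at P14 (ratio 3.06, 2.33 without it). P14 replicate 2 was the high library in all 3 of these genes. Traip, which encodes a ubiquitin ligase of DNA replication and repair, had 68.4, 244, 56.5 and 87.2 CPM at P14, and its ratio of 2.23 became 1.37 without P14 replicate 2, below the limit of the rule. C4b, the gene of complement component 4, stood out in another library, with 12.8, 3.86, 4.59 and 3.49 CPM at P14, replicate 1 being the highest.

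**Figure D1:**
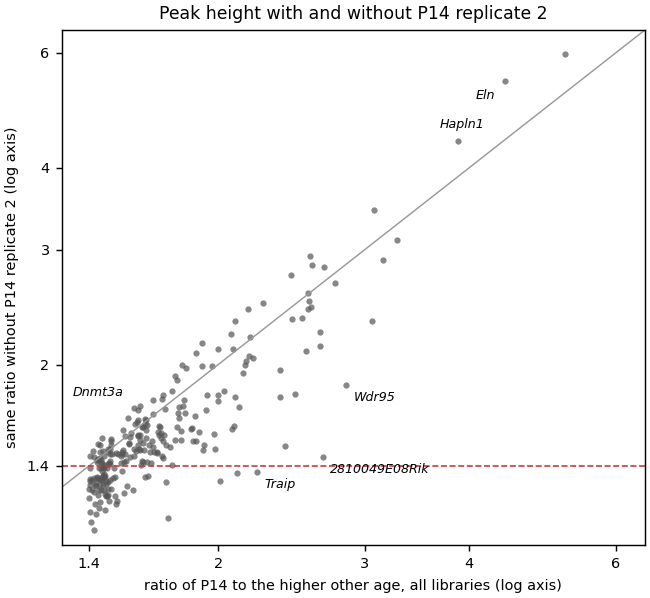
Each point is 1 of the 252 genes: the x axis is the ratio of the mean P14 CPM to the higher of the P0 and P28 means with all libraries, the y axis the same ratio without P14 replicate 2, both on log axes. The solid line marks equal ratios and the dashed line 1.4, under which 72 genes fall.

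The rule was also applied with 1 P14 library held out, and that library was then read at the genes chosen from the other 11. Held-out replicate 1 lay above all 8 P0 and P28 libraries in 274 of 319 genes (85.9%), against 11.5% of the other genes at the same level. For replicate 3 this held in 273 of 313 genes (87.2%, other genes 12.4%) and for replicate 4 in 273 of 289 (94.5%, other genes 15.0%). Held-out replicate 2 lay above all 8 in 184 of 245 genes (75.1%), and here the share among other genes was highest, at 28.4%. Fewer genes reached the ratio limit of the rule in the held-out library. These were 159 of 319 (49.8%, other genes 1.51%) for replicate 1 and 152 of 245 (62.0%, 14.5%) for replicate 2. For replicate 3 they were 150 of 313 (47.9%, 1.33%) and for replicate 4 179 of 289 (61.9%, 1.59%). The other genes were those that the rule had not chosen from the 11 libraries, so part of the gap may come from the choice. The P0 and P28 libraries served both in choosing and in reading, so only the P14 side was new to the rule in these counts.

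The rule bounds the levels at P0 and P28 from above but does not say which is higher, so P28 was compared with P0. This comparison is not independent of the choice, since the rule used the same P0 and P28 values. Over all genes tested, 68.9% differed between P14 and P0 and 18.3% between P28 and P14. A choice of genes with P14 above P0 may thus itself favour P28 above P0. How much of the shares below comes from the choice was not tested. All 252 genes were among the 15734 tested with limma, 1 of them only through its P14 libraries. After Benjamini-Hochberg adjustment over all genes tested, 129 of the 252 (51.2%) were higher at P28 than at P0, where 35.7% of all genes tested were, and 6 (2.38%) were lower, where 35.6% were. The median log2 fold change (P28 minus P0) was 0.41, against 0.00 over all genes tested. At least 2-fold higher were 70 of the 252 genes and at least 4-fold higher 21, and 0 were past the threshold and at least 2-fold lower, where 18.17% of all genes tested were called at least 2-fold higher and 17.99% at least 2-fold lower. The other 117 did not pass the threshold, and for 81 of them the 95% interval of the difference lay within 1.5-fold either way. Without P14 replicate 2 in the fit, 144 of the 252 were higher and 11 lower. Of the 245 genes chosen without it, 116 were higher and 5 lower.

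**Figure D2:**
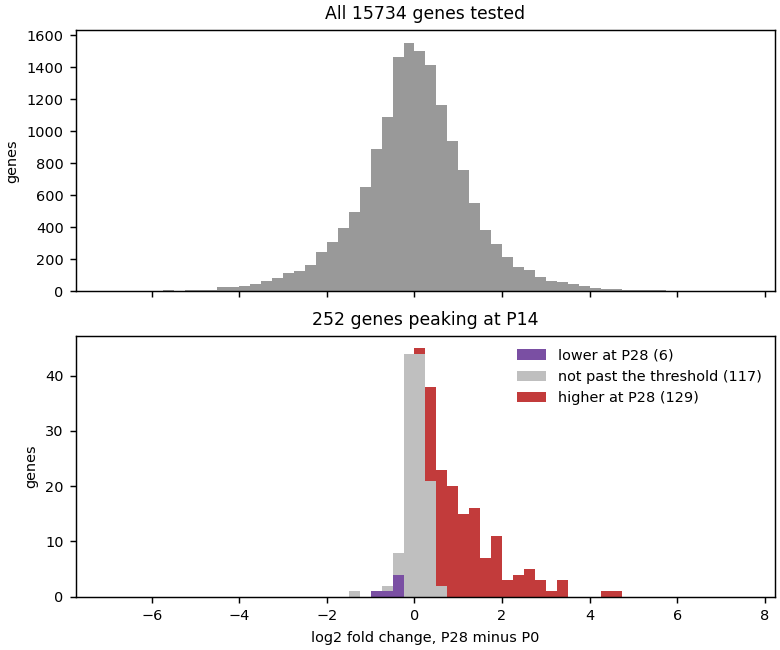
Histograms of the log2 fold change of P28 over P0 (x axis) with the number of genes on the y axis, for all 15734 genes tested (top, 35.7% of them higher and 35.6% lower) and for the 252 genes peaking at P14 (bottom, coloured by the limma call). The 252 genes extend far to the right, up to 4.55, and hardly to the left.

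Robo3, an axon guidance receptor, had the largest of these rises, 4.55 ± 0.30, adjusted p = 1.48e-08, with 7.47, 2.84, 2.67 and 3.81 CPM at P0, 164, 348, 127 and 185 at P14 and 108, 96.98, 100.2 and 103 at P28 (ratio 2.08, 1.59 without P14 replicate 2). Trbc2 (chr6:41546730-41548181), the constant segment of the T cell receptor beta chain, followed (4.33 ± 0.14, adjusted p = 2.37e-11). It was at 0.843, 0.437, 0.5501 and 0.748 CPM at P0, 34.7, 42.3, 35.1 and 36.4 at P14 and 19.5, 24.98, 21.9 and 23.4 at P28 (ratio 1.70, 1.61 without it). In both genes the P28 libraries lay below every P14 library and far above every P0 library. Cyp11a1, the enzyme that starts steroid hormone synthesis from cholesterol, rose by 3.48 ± 0.24, adjusted p = 2.01e-08, and stood at 0.615 ± 0.348, 20.7 ± 6.23 and 11.5 ± 0.652 CPM (mean ± SD, n = 4) at the 3 ages. Among the genes lower at P28 than at P0, Stc1, which encodes the secreted glycoprotein stanniocalcin, fell most (−0.77 ± 0.17, adjusted p = 0.00114), followed by Postn (−0.57 ± 0.20, adjusted p = 0.0202), Rras2 (−0.44 ± 0.14, adjusted p = 0.0143), Smim18 (−0.40 ± 0.13, adjusted p = 0.0167) and Gm20604 (−0.33 ± 0.10, adjusted p = 0.0119). Postn did not pass without P0 replicate 2, P0 replicate 3 or P28 replicate 2, and Rras2 and Smim18 did not without P28 replicate 1. Eln, below, had a larger negative value that did not pass the threshold.

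Subunits of oxidative phosphorylation were the largest of the groups formed here from the 252. The group was chosen by name after the genes had been seen, so its counts describe it and support no enrichment. Of 83 tested subunits encoded in the nucleus, 19 were among the 252 (22.9%, against 1.60% of all genes tested): 7 of 37 of complex I, 0 of 4 of complex II, 3 of 9 of complex III, cytochrome c, 3 of 15 of complex IV and 5 of 17 of complex V. Complexes were assigned by gene symbol, so Ndufa4, described below, and Ndufa4l2 were counted under complex I. Their ratios ran from 1.41 to 2.03 with a median of 1.53. P14 replicate 2 was the highest P14 library in 16 of the 19, and 5 fell below 1.4 without it.

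Ndufa4 (chr6:11900372-11907450), which encodes a subunit first placed in complex I and later in complex IV, had 125, 131, 126 and 159 CPM at P0, 246, 240.1, 248 and 254 at P14 and 159, 162, 147 and 139 at P28. Its P14 libraries lay close together and none of them came near the other ages. Cox7c, a small subunit of complex IV, had 48.4, 47.2, 47.8 and 55.8 CPM at P0, 81.2, 94.1, 71.2 and 77.999 at P14 and 52.2, 52.8, 47.8 and 42.5 at P28, so its level at P28 was back near that at birth (log2 fold change −0.03 ± 0.11, adjusted p = 0.819, limma, 95% interval −0.26 to 0.20). Cox6c, of the same complex, was at 109.8, 96.97, 92.7 and 120.3, then 181, 239, 178 and 177 and then 123, 127, 109 and 109 CPM. Atp5g3 (chr2:73908447-73912464), 1 of the genes for the rotating ring of the ATP synthase, had 201, 189, 193 and 245 CPM at P0, 309, 454, 311 and 325 at P14 and 223, 237, 201 and 199.9 at P28. Replicate 2 was the high library at P14 in both, and the ratio without it was 1.56 for Cox6c and 1.497 for Atp5g3, down from 1.70 and 1.67. Atp5k, the ATP synthase subunit whose NRF1 site is printed above, had 53.7, 40.5, 39.5 and 48.8 CPM at P0, 65.5, 84.1, 63.1 and 64.1 at P14 and 39.5, 42.7, 35.7 and 40.6 at P28. In Cycs, the gene of cytochrome c, replicate 2 was the lowest P14 library, as it was in Ndufa4. Cycs had 47.9, 38.6, 52.9 and 46.7 CPM at P14 after 24.9, 26.03, 26.01 and 28.4 at P0, and 34.1, 35.5, 31.8 and 31.4 at P28. Cycs (log2 fold change 0.33 ± 0.10, adjusted p = 0.0119) and Uqcr11, a subunit of complex III (0.61 ± 0.11, adjusted p = 0.000203), were 2 of the 5 subunits among the 19 that stayed higher at P28 than at P0 by limma. None of the 19 was lower, and 14 did not pass, where 51.2% of the 252 were higher and 2.38% lower.

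Of the other 64 subunits, the P14 mean was above both other means in 40 (62.5%), where 25.5% of all genes tested had this order, and in 43 (67.2%) without P14 replicate 2 (20.9% of all genes tested). By complex, again assigned by symbol, these 40 were 21 of 30 for complex I, 1 of 4 for complex II, 4 of 6 for complex III, 6 of 12 for complex IV and 8 of 12 for complex V. The ratio of the 64 had a median of 1.07, and the lowest was 0.16 for Ndufa4l2. With the 19 chosen for this order, 59 of the 83 had it. Over the whole group 60 were higher and 4 lower at P14 than at P0 (34.4% and 34.5% of all genes tested), 0 were higher and 35 lower at P28 than at P14 (9.22% and 9.09%), and 35 were higher and 14 lower at P28 than at P0. The P14 comparisons include the 19 chosen for their P14 level and share the P14 libraries. Among the other 64 subunits, 41 were higher and 4 lower at P14 than at P0, and 0 were higher and 16 lower at P28 than at P14. Without P14 replicate 2 the whole group gave 62 higher and 3 lower in the first step and 1 higher and 38 lower in the second. Of the 7 genes of the mitochondrial genome tested, 6 were higher and 0 lower at P14 than at P0, and 0 were higher or lower at P28 than at P14. Their summed level ran from 262 to 492 CPM (P0), from 472 to 642 (P14) and from 495 to 603 (P28). These transcripts are made inside the organelle, whereas the libraries are from captured nuclei. How far RNA from outside the nucleus entered each library was not tested.

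Mitochondrial genes outside the complexes made up a further 18, again grouped after they were seen. They act in assembly of the complexes (Ndufaf5, Dmac1, Sdhaf4, Pet100, Tmem70), in import, in protein synthesis inside the organelle, and in fuel use. Oxct1 (chr15:4026428-4155344), which encodes the enzyme that lets tissues burn ketone bodies, had 300.1, 296, 299 and 328 CPM at P0, 514, 397, 532 and 484 at P14 and 288, 279.6, 287 and 283 at P28. P14 replicate 2 was its lowest P14 library, and the ratio of 1.67 was 1.76 without it. The P28 level did not differ from that at birth past the threshold (log2 fold change −0.10 ± 0.09, adjusted p = 0.338, limma, 95% interval −0.31 to 0.10). Chchd2, a regulator of respiration between the mitochondrial membranes, went from 89.3, 77.5, 80.2 and 101 to 122, 179, 129.7 and 129 and back to 78.04, 77.9, 76.04 and 67.1 CPM. Pet100, needed to build complex IV and printed above for its CRE, had 9.27, 8.68, 9.04 and 8.38 CPM at P0, 15.4, 24.7, 17.1 and 14.9 at P14 and 10.3, 11.4, 9.88 and 12.2 at P28. Of the 18, 4 were higher and 0 lower at P28 than at P0 (51.2% and 2.38% of the 252). P14 replicate 2 was the top P14 library in 14, and 7 fell below a ratio of 1.4 without it. In the plot of group medians by library, both mitochondrial groups rise at P14 and lie near their P0 level at P28, unlike the matrix, signalling, astrocyte and oligodendrocyte groups.

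**Figure D3:**
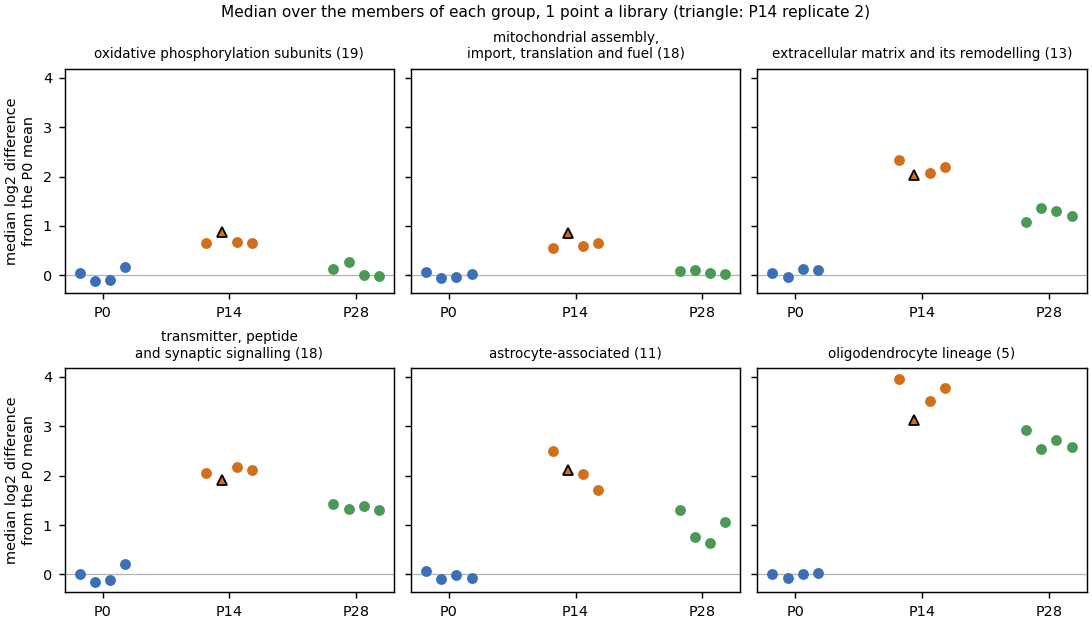
The y axis is the median, over the genes of a group (number in brackets), of the log2 difference from each gene's own P0 mean, with 1 point a library at the 3 ages on the x axis and a triangle for P14 replicate 2. All groups are high at P14 because the genes were chosen so. The astrocyte group shares genes with the matrix and the signalling groups. At P28 the medians are −0.01 to 0.26 for the subunits of oxidative phosphorylation and 1.31 to 1.42 for the signalling genes.

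Among 13 genes of the extracellular matrix and its remodelling, 8 were higher at P28 than at P0, 1 was lower (Postn) and 4 did not pass. Over the 252 genes 51.2% were higher and 2.38% lower, so the share higher in this group was near that of the 252, while over all genes tested 35.7% were higher and 35.6% lower. Hapln1 (chr13:89540529-89611832), the link protein that fastens proteoglycans to hyaluronan in perineuronal nets, had 0.662, 1.896, 1.49 and 1.42 CPM at P0, 25.9, 11.7, 24.3 and 18.4 at P14 and 6.16, 5.62, 3.97 and 5.52 at P28 (ratio 3.88, 4.41 without P14 replicate 2). Its P14 libraries did not come near the others although replicate 2 was well under replicate 1, and it stayed higher at P28 than at birth (1.67 ± 0.27, adjusted p = 7.65e-05). Bcan (chr3:87987531-88002175), the proteoglycan brevican, had 67.8, 61.7, 63.4 and 71.04 CPM at P0, 134, 162, 99.8 and 84.3 at P14 and 59.6, 54.5, 50.3 and 60.1 at P28, the last not past the threshold against P0 (−0.23 ± 0.16, adjusted p = 0.217), and its ratio of 1.94 was 1.70 without P14 replicate 2. Npnt, a matrix ligand of integrins, had 12.4, 15.8, 15.6 and 16.6 CPM at P0, 118, 63.4, 121 and 97.6 at P14 and 45.9, 40.5, 39.7 and 41.1 at P28 (1.44 ± 0.17, adjusted p = 5.72e-06), and its ratio of 2.45 was 2.74 without P14 replicate 2, its lowest P14 library. Cemip, which breaks down hyaluronan, likewise had its lowest P14 library in replicate 2, with 92.1, 53.6, 91.7 and 75.4 CPM at P14 between 16.98, 12.03, 17.6 and 18.1 at P0 and 42.7, 42.1, 48.9 and 43.2 at P28. Thus the peaks of Hapln1, Npnt and Cemip were higher, not lower, without the library that stood apart. This did not hold for the whole group: P14 replicate 2 was the highest P14 library in 7 of the 13. Without it, 3 of the 13 fell below a ratio of 1.4. Htra1, a secreted protease, had 15.96, 13.6, 16.1 and 13.5 CPM at P0, 103, 60.98, 72.8 and 54.2 at P14 and 34.6, 25.2, 20.9 and 30.9 at P28. In Htra1, P14 replicate 1 was the highest, as it was in 4 of the 13 genes. Eln (chr5:134702595-134747368), which encodes elastin, the protein of elastic fibres, was the most uneven: 33.6, 40.7, 48.6 and 44.8 CPM at P0, 169, 52.3, 72.6 and 403 at P14 and 50.2, 8.83, 7.48 and 19.98 at P28. Its lowest P14 library was just above the highest P28 library, and the difference between P28 and P0 did not pass (−1.33 ± 0.61, adjusted p = 0.0667, limma). It passed in 4 alternatives, 2 of them the fits without P14 replicate 4 and without P28 replicate 1, the high libraries of their ages. Of the 25 genes listed for the perineuronal net, Bcan and Hapln1 were the only ones among the 252. Of the other 23, 5 were higher and 11 lower at P14 than at P0 (34.4% and 34.5% of all genes tested). The summed level of 14 vascular and fibroblast markers ran from 981 to 1677 CPM (P0), from 108 to 275 (P14) and from 61.9 to 127 (P28), so it was highest at birth.

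Among 18 genes of transmitter, peptide and synaptic signalling, 14 were higher at P28 than at P0, 0 lower and 4 not past the threshold (51.2% higher and 2.38% lower over the 252, 35.7% and 35.6% over all genes tested), with a median log2 fold change of 1.29 against 0.41 over the 252. The highest ratios were those of receptors, Hcrtr1 and Grin2c. Hcrtr1 (chr4:130130217-130139594), an orexin receptor, had 0.482, 0.5104, 0.5501 and 0.972 CPM at P0, 11.9, 23.4, 13.6 and 12.8 at P14 and 6.11, 6.0003, 7.27 and 5.46 at P28 (P28 against P0 2.59 ± 0.21, adjusted p = 1.32e-07). Gpr6 (chr10:41069977-41072290), a receptor that raises cAMP without a known dedicated ligand, went from 0.482, 0.5104, 0.629 and 1.196 to 13.004, 12.9, 16.5 and 12.1 and then 4.97, 7.95, 7.73 and 7.66 CPM (2.67 ± 0.21, adjusted p = 6.68e-08). Both were near or under 1 CPM in every P0 library and lay at P28 between the P0 and the P14 libraries. Grin2c, which encodes the GluN2C subunit of NMDA receptors, was the only 1 of 24 listed glutamate receptor genes among the 252, with 1.99, 1.17, 1.81 and 1.496 CPM at P0, 27.1, 24.8, 19.6 and 11.4 at P14 and 9.99, 9.56, 7.65 and 11.5 at P28. After scaling, P14 replicate 4 of Grin2c was slightly under the highest P28 library, so its separation rests on the unscaled CPM of the rule. Slc17a8, the vesicular glutamate transporter VGLUT3, had 1.204, 2.26, 1.34 and 2.17 CPM at P0, 8.56, 7.096, 10.5 and 8.38 at P14 and 4.03, 3.698, 5.36 and 4.596 at P28 (1.16 ± 0.20, adjusted p = 0.000131). The organiser of excitatory synapses Lrrtm4 had 12.5 ± 2.03, 37.3 ± 5.697 and 26.7 ± 2.24 CPM (mean ± SD, n = 4), and was 1 of 45 listed synaptic adhesion genes.

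Peptides were represented by Pdyn and Cartpt. Pdyn (chr2:129686549-129699938), the precursor of dynorphin, had 9.09, 5.76, 6.21 and 7.03 CPM at P0, 27.2, 18.7, 29.5 and 24.96 at P14 and 19.3, 15.4, 15.9 and 14.4 at P28 (1.17 ± 0.17, adjusted p = 3.17e-05). On this scale P14 replicate 2 of Pdyn (18.7) lay under P28 replicate 1 (19.3), so its separation rests on the unscaled CPM of the rule. Cartpt, the precursor of the CART peptides and a carrier of the CRE printed above, was at 0.482, 0.656, 0.157 and 0.374, 10.2, 10.8, 9.59 and 11.5 and 7.29, 7.78, 5.96 and 6.48 CPM (3.03 ± 0.18, adjusted p = 4.2e-09). With the receptors Hcrtr1 and Ntsr2, Pdyn was among 38 tested genes of a list of neuropeptides and their receptors, of which 24 were higher and 6 lower at P14 than at P0 (34.4% and 34.5% of all genes tested) and 2 higher and 4 lower at P28 than at P14 (9.22% and 9.09%). Among the 35 of the list that are not in the 252, these counts were 21 and 6, then 2 and 2. Pcp4, a small modulator of calmodulin, had 12.7, 10.4, 9.35 and 13.3 CPM at P0, 96.5, 109, 100.3 and 121 at P14 and 68.9, 72.4, 65.6 and 62.9 at P28 (2.52 ± 0.12, adjusted p = 5.22e-10), with wide gaps between the ages. Snap91, a clathrin adaptor that recycles synaptic vesicles, had 267, 313, 324 and 355 CPM at P0, 463, 468, 501 and 481 at P14 and 324, 334, 323 and 342 at P28, and did not pass between P28 and P0 (0.08 ± 0.09, adjusted p = 0.46, 95% interval −0.12 to 0.27). Crym, which binds thyroid hormone in the cytosol and marks some deep layer neurons, had 58.3 ± 7.77, 151 ± 20.7 and 91.5 ± 5.08 CPM (mean ± SD, n = 4), and was the only 1 of 13 listed deep layer markers among the 252.

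**Figure D4:**
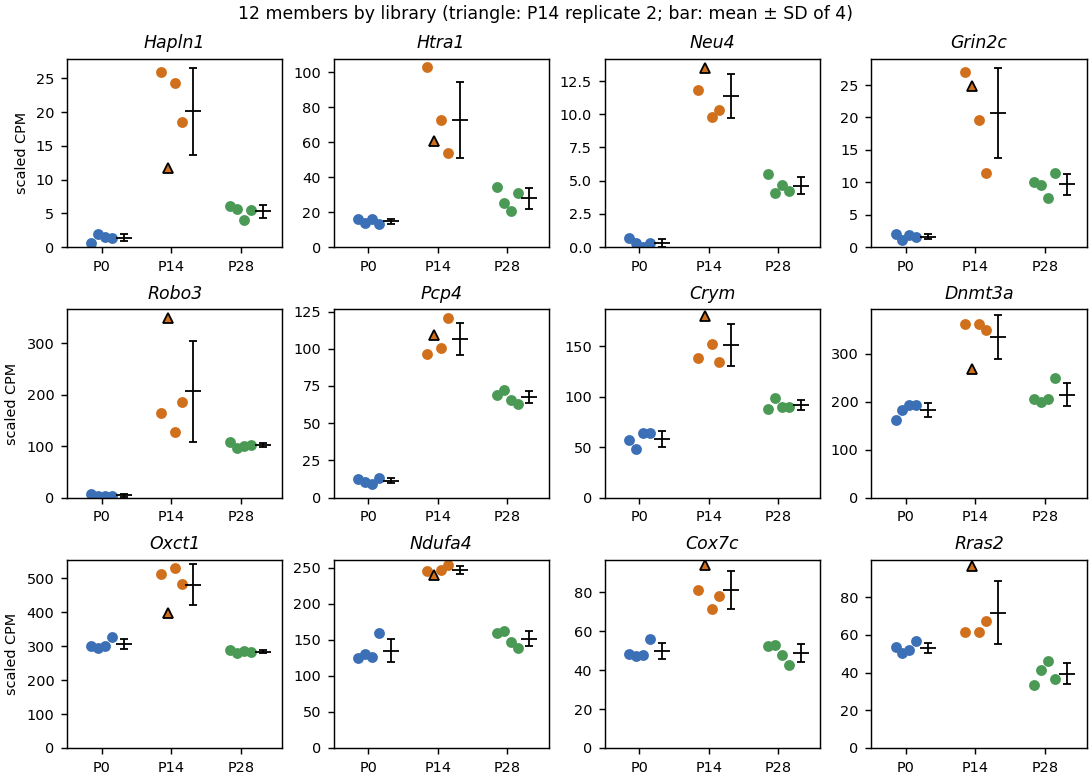
Scaled CPM (y axis, from 0) of 12 of the 252 genes in each library at the 3 ages (x axis), with the mean ± SD of 4 libraries as a bar and P14 replicate 2 as a triangle. At P28 Pcp4 (mean 67.5) and Crym (91.5) lie between their P0 and P14 levels, whereas Cox7c (48.8), Oxct1 (285) and Rras2 (39.4) lie near or below their P0 level.

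Genes that mark oligodendrocytes at the start of myelination were also present, although the nuclei were selected by a Cre of excitatory neurons. Of 14 tested markers of newly formed oligodendrocytes, 5 were among the 252: Enpp6, Bcas1, Neu4, Cnksr3 and Rras2. Enpp6 (chr8:46939197-47096762), a choline-releasing enzyme, had 0.241, 0.219, 0.393 and 0.1496 CPM at P0, 11.98, 5.98, 10.1 and 11.1 at P14 and 6.11, 5.76, 4.44 and 4.69 at P28 (2.94 ± 0.21, adjusted p = 2.97e-08). Neu4 (chr1:94020493-94028334), a sialidase, had 0.723, 0.292, 0 and 0.299 CPM at P0, 11.8, 13.5, 9.78 and 10.4 at P14 and 5.49, 4.08, 4.69 and 4.24 at P28 (2.69 ± 0.23, adjusted p = 1.94e-07). Bcas1 (chr2:170343973-170427911), which marks early myelinating cells, had 3.43, 2.92, 3.301 and 3.59 CPM at P0, 61.8, 48.4, 42.6 and 54.4 at P14 and 43.7, 35.5, 37.9 and 32.9 at P28 (3.31 ± 0.13, adjusted p = 1.12e-10). In these 3 genes the P0 libraries were the lowest by far and the P28 means lay between the other ages. After scaling, the lowest P14 library was slightly under the highest P28 library for Enpp6 (5.98 against 6.11) and for Bcas1 (42.6 against 43.7). Their separation therefore rests on the unscaled CPM of the rule. Cnksr3 did not pass between P28 and P0 (0.18 ± 0.16, adjusted p = 0.331), and Rras2, a small GTPase related to Ras, was lower at P28 (−0.44 ± 0.14, adjusted p = 0.0143). Rras2 had its highest P14 level in replicate 2, at 96.7 CPM, and a ratio of 1.26 without it. Over the 14 markers, 5 of them chosen for their P14 level, 8 were higher and 3 lower at P14 than at P0, and 0 higher and 8 lower at P28 than at P14, or 0 and 12 without P14 replicate 2. Of the 9 that are not among the 252, 3 were higher and 3 lower at P14 than at P0 (34.4% and 34.5% of all genes tested), and 0 were higher and 3 lower at P28 than at P14 (9.22% and 9.09%). The summed level of these 9 ran from 1060 to 1131 CPM (P0), from 457 to 607 (P14) and from 367 to 432 (P28). None of 16 myelinating oligodendrocyte markers was among the 252. Their sum ran from 112 to 119 CPM (P0), from 1031 to 2534 (P14) and from 2002 to 3249 (P28), and P14 replicate 2 was the low one at P14. How far oligodendrocyte RNA contributed to these values was not tested.

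Genes known from astrocytes numbered 11 by a grouping made after they were seen, and 9 of them were higher at P28 than at P0, 0 lower and 2 not past the threshold, where 51.2% of the 252 and 35.7% of all genes tested were higher. The groups overlap: Grin2c and Ntsr2 were also counted with the signalling genes above, and Htra1 and Bcan with the matrix genes. Dio2 (chr12:90724552-90739038), the enzyme that turns thyroxine into its active form, had 12.6, 13.3, 12.4 and 12.8 CPM at P0, 74.3, 40.3, 53.7 and 43.01 at P14 and 35.04, 23.3, 20.02 and 26.5 at P28 (0.98 ± 0.19, adjusted p = 0.000443). Slc7a10 (chr7:35186095-35201116), a transporter of small neutral amino acids such as D-serine, had 3.13, 3.35, 2.83 and 2.84 CPM at P0, 15.2, 15.3, 12.4 and 10.2 at P14 and 4.59, 4.78, 4.82 and 6.86 at P28 (0.69 ± 0.17, adjusted p = 0.00227). Mertk, a receptor for engulfing synapses and debris, went from 4.998, 3.28, 4.48 and 2.62 to 26.4, 19.5, 21.1 and 12.9 and then 9.99, 5.41, 6.29 and 10.4 CPM (0.96 ± 0.26, adjusted p = 0.005). In Dio2 and Mertk, P14 replicate 1 was the highest library of all, while in Slc7a10 replicates 1 and 2 were alike. Atp13a4, a membrane transport ATPase, had 0.662, 0.5104, 0.393 and 0.823 CPM at P0, 8.63, 12.2, 7.39 and 5.54 at P14 and 3.03, 2.83, 2.53 and 4.72 at P28 (1.77 ± 0.24, adjusted p = 1.71e-05). F3, the coagulation factor known as tissue factor, had 5.54 ± 0.935, 22.9 ± 5.63 and 9.598 ± 1.405 CPM, and Mt3, a metal-binding metallothionein, 29.3 ± 3.58, 121 ± 12.4 and 83.5 ± 9.03 (mean ± SD, n = 4). Of 14 listed astrocyte markers, Fgfr3 and Ntsr2 were among the 252. Fgfr3, a fibroblast growth factor receptor, had 84.03, 47.4, 67.3 and 36.8 CPM at P14, with replicate 4 slightly under the highest P0 library (36.9) after scaling. Ntsr2, a neurotensin receptor, had 43.8, 52.3, 34.8 and 29.1 CPM at P14, with a ratio of 1.51 that was 1.35 without replicate 2.

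The summed level of the 12 astrocyte markers outside the 252 ran from 609 to 821 CPM (P0), from 1577 to 2993 (P14) and from 1800 to 1987 (P28). Over all 14 markers P14 replicate 1 had the highest sum (3121 CPM) and P14 replicate 2 the lowest of its age (1677), while P28 libraries ran from 1847 to 2047. P14 replicate 1 was the highest P14 library in 7 of the 11 astrocyte-associated genes, against 15.5% of the 252. Of the 14 markers, 10 were higher and 1 lower at P14 than at P0 (8 and 1 of the 12 outside the 252), and 0 were higher and 4 lower at P28 than at P14 (0 and 3 of the 12). The shares of all genes tested were 34.4% and 34.5% in the first step and 9.22% and 9.09% in the second. Over the 14, the count lower at P28 than at P14 was 9 without P14 replicate 2 and 1 without P14 replicate 1. Microglial markers (14 genes) summed to 47.5 to 73.3, 83.8 to 157 and 123 to 142 CPM at the 3 ages, and inhibitory neuron markers (14 genes) to 581 to 634, 294 to 484 and 359 to 469 CPM. The part of astrocyte RNA in these results was not tested.

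**Figure D5:**
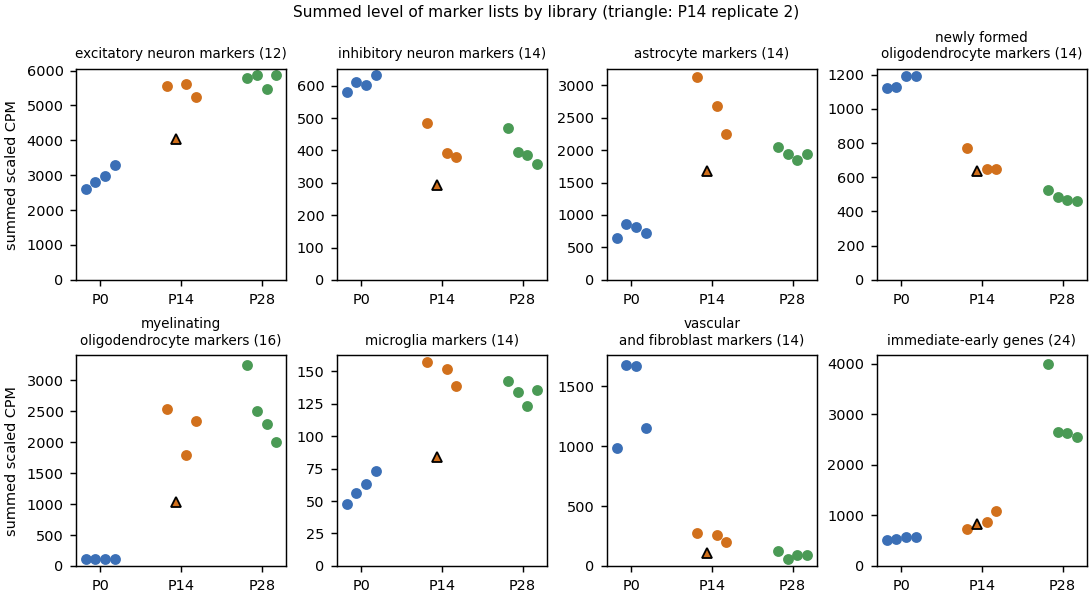
Summed scaled CPM (y axes from 0, each with its own scale) of 8 gene lists in each library at the 3 ages (x axis), with the number of genes in brackets and a triangle for P14 replicate 2. P14 replicate 2 is the lowest P14 library for each of the cell type lists shown, and the sums of immediate-early genes are highest at P28.

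Dnmt3a (chr12:3801559-3914443), the enzyme that lays down new DNA methylation and does so in neurons in the first weeks after birth, had 162, 182, 193 and 193 CPM at P0, 363, 268, 363 and 350.2 at P14 and 206, 199.7, 205 and 249.8 at P28. Replicate 2 was its lowest P14 library and the ratio rose from 1.60 to 1.70 without it. P28 did not differ from P0 past the threshold (0.23 ± 0.12, adjusted p = 0.0848, limma, 95% interval −0.02 to 0.48), but it did in 7 of the alternatives, also in the one that left out P14 replicate 2. Dnmt3aos, annotated on the opposite strand within the gene, could share reads with it.

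Genes of motile cilia formed a further set of 6, chosen after they were seen: the dynein heavy chains Dnah14 and Dnah10, the kinesin Kif19a, and the axonemal proteins Ccdc39, Drc1 and Ccdc13. Of these, 5 were higher at P28 than at P0, 0 lower and 1 did not pass (Dnah10), where 51.2% of the 252 and 35.7% of all genes tested were higher. Ccdc39 had 28.7, 31.9, 22.6 and 20.8 CPM at P0, 58.6, 129, 59.9 and 85.9 at P14 and 39.3, 41.1, 49.5 and 52.1 at P28, and its ratio of 1.88 was 1.53 without P14 replicate 2, its high library. Kif19a had 1.02, 1.896, 0.943 and 1.27 CPM at P0, 6.73, 6.98, 3.71 and 4.57 at P14 and 3.36, 2.44, 2.32 and 2.46 at P28. P14 replicate 2 was the highest P14 library in 5 of the 6. Ependymal cells bear motile cilia. The summed level of 14 choroid plexus and ependymal markers ran from 35.5 to 75.7 CPM (P0), from 242 to 376 (P14) and from 295 to 369 (P28), with none of the 14 among the 252. This sum does not separate ependymal from choroid plexus cells, and the part of either in these values was not tested. Ccdc39 overlaps Ttc14 in the annotation.

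Single genes of metabolism and hormone response were also among the 252. Ngb (chr12:87097531-87102539), which encodes the neuronal oxygen-binding protein neuroglobin, had 2.59, 2.19, 2.04 and 2.62 CPM at P0, 11.9, 10.1, 11.03 and 12.8 at P14 and 9.33, 5.97, 5.87 and 5.62 at P28 (1.31 ± 0.17, adjusted p = 1.02e-05). Slc13a5, a citrate transporter of the plasma membrane, had 2.41, 3.94, 2.36 and 3.14 CPM at P0, 9.696, 16.1, 10.2 and 9.89 at P14 and 5.35, 6.35, 6.46 and 8.27 at P28 (1.05 ± 0.20, adjusted p = 0.000407). Hnmt, which inactivates histamine, had 5.66, 6.71, 6.44 and 9.42 CPM at P0, 26.5, 25.01, 29.1 and 28.9 at P14 and 17.1, 21.2, 19.6 and 17.5 at P28 (1.37 ± 0.14, adjusted p = 1.45e-06). All 3 stayed above their P0 level at P28 in every library. The growth hormone receptor gene Ghr had 9.46 ± 1.99, 22.1 ± 4.79 and 13.7 ± 2.003 CPM (mean ± SD, n = 4) and was higher at P28 than at P0 (0.52 ± 0.17, adjusted p = 0.0162). Ghr did not pass without P0 replicate 1 (limma adjusted p = 0.0501), P0 replicate 3 or P28 replicate 4 (0.0525 for each).

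Several lists had no gene among the 252, which are 1.60% of all genes tested, so that none in a list of 17 to 45 genes is close to this share. None of 24 immediate-early genes, which neurons switch on within minutes of activity, was among them: 13 were higher and 6 lower at P14 than at P0, and 20 were higher and 0 lower at P28 than at P14, where 34.4% and 34.5% of all genes tested were higher and lower in the first step and 9.22% and 9.09% in the second. No gene was chosen either from 26 later activity-regulated genes (13 higher and 1 lower at P28 than at P14), 17 circadian clock genes (10 higher and 0 lower), 22 cholesterol synthesis genes (4 and 4), 26 sodium and calcium channel genes (7 and 0) or 45 secreted growth factors (4 and 8). The calcium and calmodulin list contributed Pcp4 (1 of 39 genes), and the axon guidance list Robo3 (1 of 52).

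Of the 252 genes, 241 are protein coding, and all were matched to RefSeq. Their median span in the genome was 17.9 kb, against 26.8 kb for 11535 genes with a symbol at 5 or more P14 CPM; it was 4.01 kb for the 19 subunits of oxidative phosphorylation and 19.6 kb without them. Some of the genes are neighbours within 100000 bases. Chromosome 3 held S100a13, S100a16 and S100a6, calcium-binding proteins of 1 family, within a cluster: their P14 values were 8.67, 8.78, 6.94 and 7.77, 39.4, 30.96, 28.01 and 34.8 and 7.83, 9.59, 7.47 and 8.49 CPM, and S100a6 was higher at P28 than at P0 (0.94 ± 0.15, adjusted p = 6.29e-05). S100a13 did not pass (0.31 ± 0.14, adjusted p = 0.0614) but did without P14 replicate 2 (limma adjusted p = 0.0498). On chromosome 5, Phkg1, a subunit of phosphorylase kinase, and Chchd2 were 2027 bases apart, with Psph, the last enzyme of serine synthesis, 75988 bases away. Phkg1 was higher at P28 than at P0 (2.00 ± 0.28, adjusted p = 2.3e-05), whereas Chchd2 (−0.21 ± 0.13, adjusted p = 0.142) and Psph (−0.08 ± 0.12, adjusted p = 0.586) did not pass. Without P14 replicate 2, Chchd2 was lower at P28 (limma adjusted p = 0.0365). Further neighbours were Ube2w and Tmem70, Tlcd1 and Sdf2, Zfp959 and Zfp119b, Gm42517 and Atp5k, Lair1 and 9430041J12Rik, and Prss35 and Snap91. Annotated spans of 108 of the 252 genes overlapped another gene, a share that was not counted over all genes. At least 46 of them overlapped one on the opposite strand, among them Slc7a10, Dio2, Enpp6, Pet100, Oxct1 and Ntsr2. The strand was not listed for every gene, so 46 is a lower count. The strand that was counted is not named in these sources, so reads of such pairs may not be separated.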

How the data were processed

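RNA-seq of polyadenylated RNA from Cre-selected cortical nuclei was available for 12 libraries, 4 at each of 3 ages. The authors deposited a signal, namely normalized counts, 1 table an age, and the submitters' processing notes name DESeq2 and mm10. The aligner, counter, counted strand and annotation are not named in these sources. Every value was a whole multiple of its library's step (tolerance 0.05 reads, 100% of values), so the deposited counts were recovered as whole reads. For P0 replicate 1 the step was 1.005, close to 1.

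Each column was divided by its total over the 25834 genes shared by the tables. These CPM chose the 252 genes. For levels and tests CPM were scaled by median-of-ratios factors over the 12 libraries (0.936 to 1.04), a filter of 1 scaled CPM in at least 4 libraries left 15734 genes, and log2(scaled CPM + 0.5) was fitted with limma 3.58.1 (R 4.3.3; trend and robust, age as factor, no block, two-sided). Fold changes on this scale understate those of low genes. P-values were adjusted by Benjamini and Hochberg over all genes tested, with 0.05 as the threshold, and ± after a log2 fold change is its standard error. Biological replicates are named as such by the labels, which do not say whether pups shared litters. The code was tested on simulated data. The genes and lists were chosen with earlier results of these data known. Named genes were those with the 12 highest ratios, up to 4 of each list by ratio, the 5 largest rises and falls from P0 to P28, those nearest the limits, motif carriers, neighbours and paralogs. Others (Oxct1, Dnmt3a, Dio2, Mertk, F3, Slc7a10, Mt3, Traip, Gpr6, Cartpt, Npnt, Cemip, Slc17a8, Atp13a4, Ngb, Slc13a5, Hnmt, Ghr, and mitochondrial and cilium genes), and the groups by function, were chosen after their values were seen. Replicate numbers did not pair libraries between ages: same-numbered libraries correlated at −0.51 to 0.36, over 0.1 in 3 of 12 pairs. Alternatives covered scaling, filter, pseudocount, edgeR 4.0.16, DESeq2 1.42.0, a replicate block, thresholds of the rule, and leaving out libraries. Each table column matched 1 sample (0 did not).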

Additional observations from a re-analysis of the deposited data

Results flagged for a closer look

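For the genes named in the text, 243 groups of 4 libraries were examined for a single library far from the other 3 (a gap above the Dixon 95% value for 4 samples), and 30 had one (12.3%), where chance gives about 1 in 20. In 14 of the 30 the library was P14 replicate 2.

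It was the high P14 library, in scaled CPM, for 2810049E08Rik (97.6), Amz1 (30.9), Atp5g3 (454), Atp5k (84.1), Chchd2 (179), Cox6c (239), Hcrtr1 (23.4), Postn (24.4), Rras2 (96.7), Sdf2 (109.8), Slc13a5 (16.1), Traip (244) and Wdr95 (15.3), and the low one for Dnmt3a (268). Without it the ratio was 1.248 for Amz1, 1.21 for Sdf2, 1.27 for Postn, 1.49 for Atp5k, 1.54 for Chchd2, 1.53 for Slc13a5 and 2.10 for Hcrtr1, and for the others it is given with the gene. Other P14 libraries stood apart for C4b (replicate 1 high, 12.8), Gm20604 (replicate 1 low, 20.2) and Nt5e (replicate 4 low, 6.29).

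At P0 the library apart was replicate 4 for Cox7c (55.8), Hcrtr1 (0.972) and Oxct1 (328), replicate 3 for Cnksr3 (8.09) and replicate 2 for Ube2w (52.9), each the highest of its age. At P28, replicate 4 was highest for A830029E22Rik (1.72), Dnmt3a (249.8) and Slc7a10 (6.86) and lowest for Uqcr11 (48.1), and replicate 1 was lowest for Gpr6 (4.97) and highest for Kif19a (3.36) and Ngb (9.33). Replicate 3 was highest for Cemip (48.9). P28 replicate 4 and P0 replicate 1 are the 2 libraries that their names mark as merged.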

How the results depend on the processing

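The number of genes chosen was 252 on CPM, 198 on scaled CPM and 223 with TMM scaling, and it moved to 1086 on the deposited values without rescaling (252 shared), to 387 with the lower ratio limit tried, to 48 with a ratio of 2 and to 447 with overlapping libraries allowed. Leaving out a library gave 245 to 319 genes. The count higher at P28 than at P0 was 119 to 144 and the count lower 5 to 11 when a library was left out of the fit, 11 being without P14 replicate 2. The count lower moved from 6 to 2 at a threshold of 0.01, to 1 on the deposited values and to 12 in a fit of the 8 P0 and P28 libraries. With the genes chosen on scaled CPM it was 2, and with those chosen on the deposited values 318 were higher and 110 lower. Selection without P14 replicate 2 and on other scalings, and the fits of oxidative phosphorylation subunits, were added after the data were seen. Replicate numbers were not found to pair libraries (no library correlated best with its own number at both other ages, and 3 of 12 same-numbered pairs were over 0.1), and a fit with the replicate number as a block gave 127 higher and 7 lower. On the deposited values, where scaling moves the median of all genes from P0 to P28 by 0.29 (log2), Cox7c (0.25, adjusted p = 0.0426) and Tmem70 (0.26, adjusted p = 0.0307) changed from slightly lower to higher at P28. Over the named genes and the alternatives run on each, P28 against P0 kept its direction and its side of the threshold in 2070 results, lost the threshold in 57 and gained it in 44. Levels under about 1 CPM rest on few reads: 3 reads equal 0.0858 to 0.236 scaled CPM, depending on the library.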
